A study of Mus musculus with 6 samples.

Results

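Kinesins are motor proteins that turn ATP hydrolysis into movement or remodelling along microtubules. One set builds and runs the mitotic spindle and the cleavage furrow, so its transcripts accumulate in cycling cells, of which bone marrow holds many among its red cell, granulocyte and lymphocyte precursors. Another set carries vesicles, organelles and protein complexes toward microtubule ends, and several members of it are best known from neurons. The kinesin genes described here are those whose array symbol starts with Kif and a number: 99 probe sets that carry a single symbol, of 45037 tested, which make 37 of the 18193 genes measured. They were taken by symbol and divided by known role, with earlier results of these data known. The roles were 11 mitotic kinesins, 15 transport kinesins and 11 others. The others were motors of cilia and centrioles, microtubule depolymerases apart from Kif2c (counted as mitotic), and motors with less known roles. One further Kif probe set carries the symbols of several genes and was left out.

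The samples were 6 bone marrow RNAs of adult female F1 mice, with no treatment named beside the anaesthetic Avertin at collection, each hybridised to an Affymetrix array. The 3 called AKR F1 are of the cross (AKR/J x FVB/NJ)F1, and the 3 called DBA F1 of the cross (DBA/2J x FVB/NJ)F1. Every animal carries an FVB/NJ set of chromosomes, so the groups differ in the other parent, AKR/J or DBA/2J, and the question was which genes differ in basal expression between these genotypes. The labels do not say whether each array is a separate animal, so the spread that p-values rest on is that between these 6 samples and may be technical. Values are log2 expression, differences are AKR F1 minus DBA F1, and a gene is read from the probe set with the highest mean unless stated. In whole marrow, fewer cells of a type and less RNA per cell cannot be told apart. Sequence differences of the parental strains at the probes are not analysed here, and differences between probe sets of a gene are given as measured.

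The arrays had medians from 5.14 to 5.19, and their number limits the precision. The means of the blood cell marker lists lay above those medians on every array (12.55 to 13.04 for 10 neutrophil genes), though single markers did not, such as Hba-a1 at 3.55 to 3.88 and Cd3g at 4.52 to 4.92. Some features of the samples moved with the groups. The mean of 12 skeletal muscle genes was 6.65 to 7.97 in AKR F1 and 8.63 to 11.31 in DBA F1 (8 lower, none higher). That of 8 erythroid genes was 10.91 to 10.93 against 10.56 to 10.73 (4 higher, none lower). Among all genes measured 9.20% passed as higher and 6.04% as lower. The mean of 18 proliferation genes overlapped, at 10.36 to 10.54 against 10.38 to 10.52. The 3' to 5' index, the mean excess of the 3' over the 5' probe set of 6 control transcripts, was higher in AKR F1 (1.66, 2.22 and 2.08 in replicates 1 to 3) than in DBA F1 (1.44, 1.54 and 1.45), and the mean of the hybridization controls was lower (9.74 to 9.95 against 10.27 to 10.72). With either measure as a covariate, 3 and 2 genes of the whole table passed, and no kinesin gene was among them. The list means of 6 T and NK cell genes (6.90 to 7.04 against 6.67 to 6.78), of 6 monocyte and macrophage genes (10.11 to 10.36 against 9.87 to 10.05) and of 9 neuron and Schwann cell genes (4.54 to 4.59 against 4.37 to 4.43) were also higher on every AKR F1 array. Of 8 B cell genes, Ms4a1 and Ebf1 were lower (-0.99 and -0.86) and Cd79a higher (1.32), with list means that overlapped. The part of these markers in the kinesin differences was not tested.

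The promoters of 5 mitotic kinesins are shown first, because these are the mitotic members that differed between the crosses, 4 in one direction and 1 in the other. Genes of the late cell cycle often carry a short element called the CHR (searched as TTTGAA and TTTAAA), read by the MuvB complex with its DNA-binding subunit Lin54, and CCAAT boxes read by NF-Y. Both strands of the RefSeq windows of assembly GRCm38.p6, from 250 bases before to 50 after a gene's start, were searched, and no matches overlapped in the kinesin windows. Each stretch below runs from 70 bases before the start to 20 after it, 5′ to 3′ on the gene's strand, with the matches in capitals, and TTCAAA and ATTGG are TTTGAA and CCAAT on the other strand. 
Kif11, chr19:37376312-37376401, plus strand: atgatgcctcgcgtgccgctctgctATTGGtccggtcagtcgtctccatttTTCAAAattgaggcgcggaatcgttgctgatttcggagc
Kif20b, chr19:34922288-34922377, plus strand: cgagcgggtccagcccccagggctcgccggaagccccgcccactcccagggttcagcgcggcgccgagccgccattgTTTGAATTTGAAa
Kif23, chr9:61946780-61946869, minus strand: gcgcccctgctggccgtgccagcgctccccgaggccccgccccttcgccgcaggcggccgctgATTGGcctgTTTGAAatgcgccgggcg
Kif18b, chr11:102925105-102925194, minus strand: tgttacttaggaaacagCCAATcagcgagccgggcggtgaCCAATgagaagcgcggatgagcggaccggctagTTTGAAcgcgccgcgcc
Kif18a, chr2:109280668-109280757, plus strand: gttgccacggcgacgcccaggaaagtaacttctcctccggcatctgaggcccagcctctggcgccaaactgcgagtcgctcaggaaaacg

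Of the 10 mitotic kinesins with a window in the table, 9 hold TTTGAA, as do 17.9% of all 32851 windows. Among transport kinesins 1 of 11 genes with a window holds it, and among the others 2 of 10. CCAAT is in 6 of the 10 mitotic kinesins and in 37.4% of all windows, and TTTAAA in 2 of the 10 and in 13.2%. Kif18a, which was lower in AKR F1, holds none of these letters in its window, while Kif18b, which was higher, holds TTTGAA and a pair of CCAAT boxes. A match is a description of the letters and not of binding.

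Of the 37 kinesin genes, 7 were lower in AKR F1, 2 were higher and 28 did not pass limma's test at an adjusted p of 0.05. Among all genes measured 15.2% passed, 9.20% higher and 6.04% lower, so the kinesin genes passed at 24.3% and leaned to the lower side (18.9% lower). Dim genes pass less often. Of genes with a mean at or above the lower quartile 17.8% passed, and 34 kinesin genes, with all 9 calls, lay there. In the fit of only genes above the median level, 25.6% of genes and 9 of 24 kinesin genes passed. With each array centred on its median, 6 of the 37 kinesin genes were lower and none higher. The median difference of the kinesin genes was -0.02 and that of all genes 0.06. By role, 4 mitotic kinesins were lower and 1 higher of 11, 3 transport kinesins lower and 1 higher of 15, and none of the 11 others passed. The medians were -0.19, 0.00 and 0.11. A difference between the roles was not tested.

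**Figure D1:**
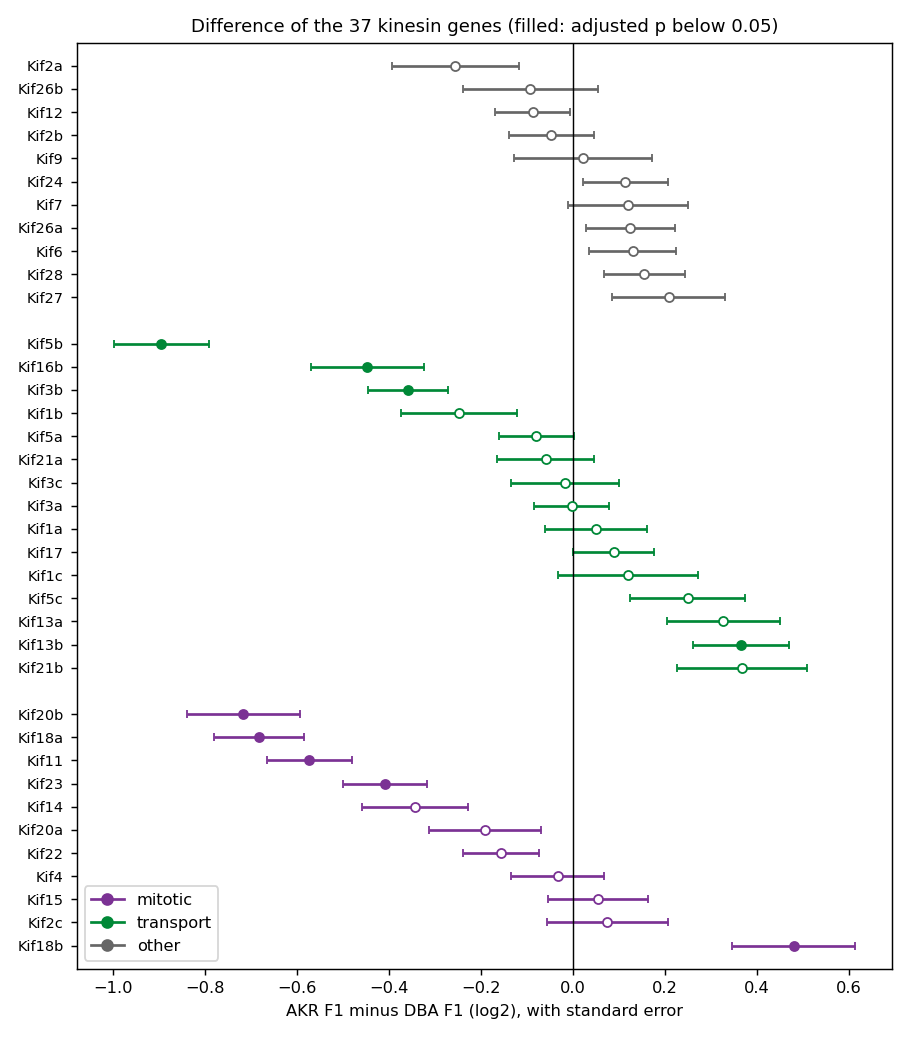
Difference between the crosses for each of the 37 kinesin genes (x axis: AKR F1 minus DBA F1, log2, with its standard error from limma; y axis: genes grouped by role), with filled points for an adjusted p below 0.05. The mitotic genes run from -0.72 for Kif20b to 0.48 for Kif18b, the transport genes from -0.90 for Kif5b to 0.37 for Kif21b, and the others from -0.26 to 0.21 with no filled point.

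The mitotic kinesins that were lower act at successive steps of division. Kif11 (Eg5, chromosome 19), which slides spindle microtubules apart to separate the poles, read 8.92, 8.995 and 9.11 on the 3 AKR F1 arrays, in the order of their replicate numbers, against 9.51, 9.56 and 9.67 for DBA F1. All AKR F1 arrays lay below all DBA F1 arrays, and the difference was -0.57 (SE 0.09, adjusted p = 0.0089 in limma), a 1.49-fold lower level. Kif18a (chromosome 2), which limits microtubule growth at kinetochores and steadies the chromosomes at the spindle equator, read 7.08, 6.91 and 7.12 against 7.61, 7.78 and 7.78. Its groups did not overlap either, and it was 1.61-fold lower (difference -0.68, SE 0.10, adjusted p = 0.0061 in limma). Neither call was lost when any one of the 6 arrays was dropped.

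The motors of cytokinesis gave the other lower mitotic genes. Kif20b (chromosome 19), which acts at the midbody, read 7.47, 7.34 and 7.78 in AKR F1 and 8.18, 8.23 and 8.32 in DBA F1. It was 1.64-fold lower (-0.72, SE 0.12, limma adjusted p = 0.010), again whichever array was dropped. Kif23 (chromosome 9), the motor of centralspindlin, which bundles the midzone with Racgap1, read 9.39, 9.45 and 9.51 against 9.74, 9.91 and 9.93. Here the lowest DBA F1 array lay just above the highest AKR F1 array, the difference was -0.41 (SE 0.09, adjusted p = 0.023 in limma), and the call was kept in 2 of the 6 fits without 1 array, being lost without any AKR F1 array and without DBA F1 replicate 2. Its adjusted p in limma over these fits ran from 0.015 to 0.085.

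Kif18b, the partner of Kif18a in the same subfamily, which trims astral microtubules, went the other way. It read 9.62, 9.64 and 9.73 in AKR F1 and 9.33, 9.35 and 8.87 in DBA F1 and was 1.39-fold higher (difference 0.48, SE 0.13, adjusted p = 0.046 in limma). The AKR F1 arrays lay close together, and DBA F1 replicate 3 was the lowest of its group. The call passed in 1 of the 6 fits without 1 array and not at the level of probe sets (adjusted p = 0.056 in limma), and Kif18b has only 1 probe set.

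**Figure D2:**
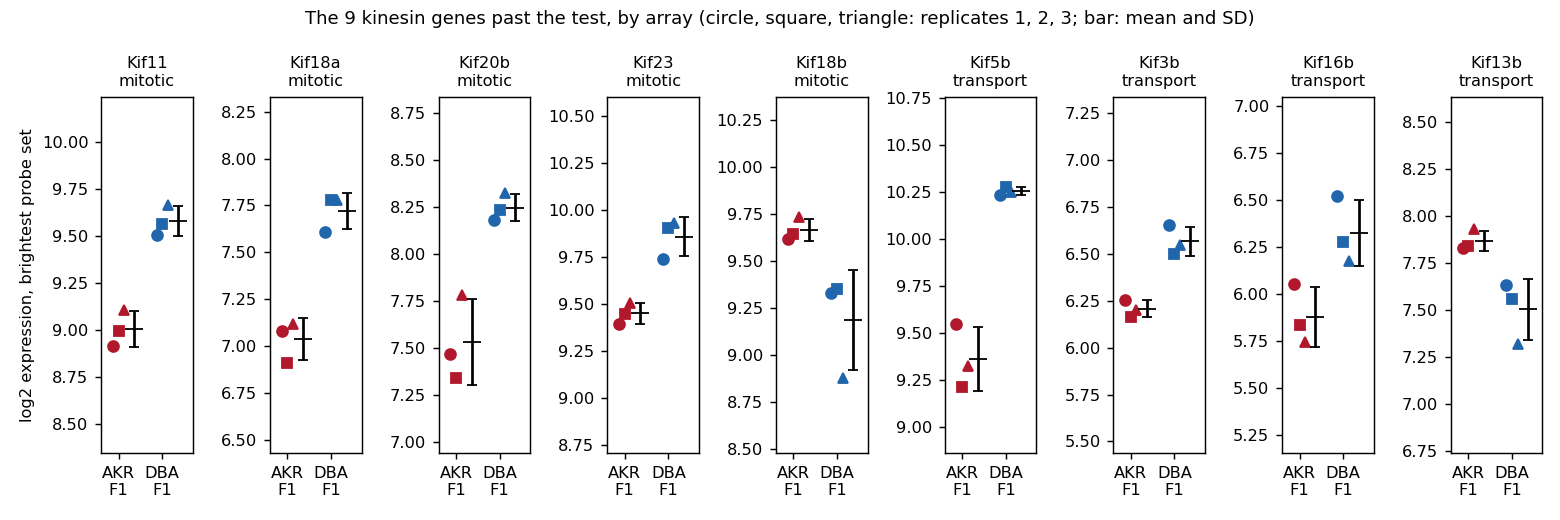
Log2 expression on each array (y axis, with its own range but the same height of 1.9 log2 units in every panel) for the 9 kinesin genes past the test, with the mean and SD of each group of 3. In every panel the AKR F1 arrays (red) and DBA F1 arrays (blue) do not overlap. Kif5b shows the widest gap, and Kif18b and Kif13b are the panels where AKR F1 is above.

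The other mitotic kinesins did not pass. Kif22, a chromokinesin that pushes chromosome arms from the poles, read 11.68, 11.72 and 11.64 against 11.80, 11.89 and 11.82, with no overlap but a difference of only -0.16 (adjusted p = 0.24 in limma). Kif20a, which carries the chromosomal passenger complex to the midzone, read 8.68, 8.27 and 8.60 against 8.70, 8.79 and 8.64 (-0.19, adjusted p = 0.33 in limma). The difference of Kif22 was small, with SDs of 0.04 in AKR F1 and 0.05 in DBA F1. AKR F1 replicate 1 of Kif20a lay within the DBA F1 range. Kif4, a chromokinesin of the X chromosome, read 9.17, 9.10 and 9.32 against 9.31, 9.27 and 9.10, and Kif2c, a depolymerase of kinetochores, 9.10, 9.42 and 9.41 against 9.13, 9.46 and 9.12. Kif15, which can stand in for Kif11, read 4.70, 4.67 and 4.50 against 4.47, 4.49 and 4.75. The groups of these 3 genes overlapped, with differences of -0.03, 0.07 and 0.05. Kif14, a cytokinesis motor whose only probe set was dim (3.52, 3.68 and 3.62 against 3.72, 4.04 and 4.08), differed by -0.34 with no overlap (adjusted p = 0.080 in limma).

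Among transport kinesins, Kif5b differed most. It encodes the widely expressed heavy chain of conventional kinesin, which moves mitochondria, lysosomes and other cargo, and lies on chromosome 18. It read 9.54, 9.21 and 9.32 in AKR F1 and 10.23, 10.28 and 10.25 in DBA F1. The DBA F1 arrays were almost equal and every AKR F1 array lay well below them. The level was 1.86-fold lower in AKR F1 (difference -0.90, SE 0.10, adjusted p = 0.0035 in limma), and the call held in all 6 fits without 1 array. Its neuronal relatives Kif5a and Kif5c were dim, at means of 4.43 and 3.73 in AKR F1 and 4.51 and 3.48 in DBA F1, and did not pass.

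The heterotrimeric motor of intraflagellar transport pairs Kif3a with Kif3b and the adaptor Kifap3. Kif3b (chromosome 2) read 6.25, 6.16 and 6.20 in AKR F1 and 6.65, 6.50 and 6.54 in DBA F1, and was 1.28-fold lower (-0.36, SE 0.09, limma adjusted p = 0.028). Kifap3 read 6.25, 6.50 and 6.31 against 6.83, 6.84 and 6.81 and was also lower, by -0.47 (adjusted p = 0.016 in limma). Kif3a, by contrast, had group means of 6.62 and 6.62 at its brightest probe set, with a difference of 0.00 (SE 0.08). Signs were mixed at the dimmer Kif3a probe sets (-0.32, 0.03 and 0.37), and none passed. At the last of them every AKR F1 array lay above every DBA F1 array (adjusted p = 0.091 in limma). Kif3c, a relative of Kif3a, read 7.29, 7.44 and 7.07 against 7.28, 7.16 and 7.41, with overlapping groups. The call of Kif3b held only in the fit without DBA F1 replicate 3, and that of Kifap3 in 4 of the 6 fits without 1 array. Other probe sets of Kif3b differed by -0.28, -0.16 and 0.24, and none of these passed.

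Kif16b (chromosome 2), which carries early endosomes, read 6.05, 5.83 and 5.74 in AKR F1 and 6.52, 6.28 and 6.18 in DBA F1. The groups did not overlap, and the difference was -0.45 (SE 0.12, adjusted p = 0.044 in limma). Kif13b (chromosome 14), a motor of membrane cargo, was higher in AKR F1, at 7.83, 7.84 and 7.93 against 7.63, 7.56 and 7.32 (difference 0.36, SE 0.10, adjusted p = 0.049 in limma). These are the calls nearest the threshold together with that of Kif18b. Each passed in 1 of the 6 fits without 1 array, and neither passed with every array centred on its median. The closest genes outside the threshold were Kif14 and Kif13a (adjusted p = 0.080 and 0.11 in limma).

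The brightest of the transport kinesins that did not pass were these. Kif21b, which also restrains microtubule growth, read 9.13, 9.27 and 9.20 against 9.10, 8.86 and 8.53. Its groups did not overlap, yet its difference of 0.37 had an adjusted p of 0.12 in limma, since DBA F1 spread over 0.29 (SD, n = 3) and AKR F1 over 0.07. Kif13a, a motor of recycling endosomes, read 7.49, 7.88 and 7.78 against 7.54, 7.34 and 7.30, a difference of 0.33 with overlap at AKR F1 replicate 1. Kif17 read 7.10, 7.25 and 7.19 against 7.08, 7.17 and 7.03, a difference of 0.09. Kif1b, a motor of mitochondria and vesicle precursors, read 8.41, 8.21 and 8.06 against 8.68, 8.38 and 8.37, a difference of -0.25 (adjusted p = 0.22 in limma). The other 6 transport genes that did not pass differed by -0.08 to 0.25.

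Of the 11 other kinesins none passed, and 1 had groups that did not overlap, Kif28, whose level lay below the lower quartile of every array. Kif2a, a microtubule depolymerase of spindle poles and axons, read 9.31, 9.57 and 9.69 against 9.54, 9.84 and 9.95. Its groups overlapped and the difference was -0.26 (adjusted p = 0.25 in limma). Kif24, which acts at centrioles, read 7.54, 7.68 and 7.77 against 7.59, 7.54 and 7.52, and Kif7, a regulator of Hedgehog signalling at the tip of the cilium, 5.93, 6.10 and 5.72 against 5.62, 5.99 and 5.78. Kif26a read 5.71, 5.83 and 5.87 against 5.57, 5.79 and 5.68, and Kif12 read 4.65, 4.62 and 4.70 against 4.70, 4.79 and 4.74. The differences of these last 4 genes lay between -0.09 and 0.12. The other 6 genes differed by -0.09 to 0.21.

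Across all 37 genes the AKR F1 arrays lay entirely below the DBA F1 arrays in 10 and entirely above them in 5, where 13.7% and 23.0% of all genes were so separated. By role these counts were 6 below and 1 above for the mitotic kinesins, 4 and 3 for the transport kinesins, and 0 and 1 for the others.

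The probe sets of a gene did not always give the same size of difference. Of the 99 kinesin probe sets 19 were lower in AKR F1 and 1 was higher at an adjusted p of 0.05 over all probe sets, 20.2% in all, where 12.3% of all probe sets passed (6.73% lower and 5.57% higher). Among mitotic kinesins 7 of 24 probe sets were lower and none higher, and among transport kinesins 8 of 56 were lower and 1 higher. Among the others 4 of 19 were lower, all 4 of them of Kif2a. Of the 25 genes with more than 1 probe set, 9 had all of them below 0, 5 had all above 0 and 11 had both signs. No kinesin gene had probe sets that passed in opposite directions.

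**Figure D3:**
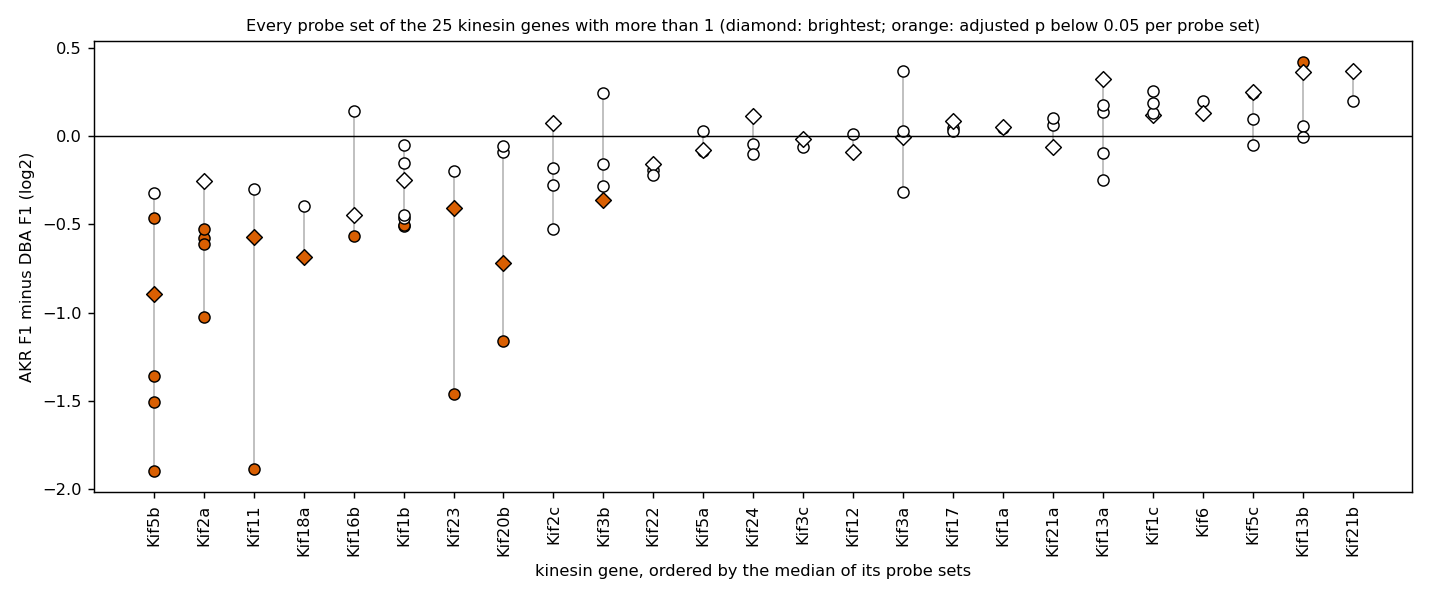
Difference at every probe set (y axis: AKR F1 minus DBA F1, log2) of the 25 kinesin genes with more than 1 (x axis, ordered by the median of the gene's probe sets), with diamonds for the brightest and orange for an adjusted p below 0.05. The probe sets of Kif5b reach from -1.90 to -0.32 and those of Kif11 from -1.89 to -0.30, all below 0.

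Kif5b was lower at 5 of its 6 probe sets by this test, with differences of -1.90, -1.51, -1.36, -0.90 and -0.46, and the sixth differed by -0.32 (adjusted p = 0.16 in limma). At the one with the widest gap, AKR F1 read 5.65, 5.28 and 5.32 and DBA F1 7.30, 7.35 and 7.30, which is 3.73-fold lower (adjusted p = 0.00026 in limma). Kif11 differed by -1.89 at its dimmest probe set, where AKR F1 read 6.94, 5.89 and 6.70 and DBA F1 8.20, 8.38 and 8.61. At its remaining probe set the difference was -0.30 and did not pass (adjusted p = 0.20 in limma). So all 9 probe sets of these 2 genes pointed the same way, with sizes that differed several-fold.

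Kif23 differed by -1.46 at a dimmer probe set (5.80, 4.65 and 5.80 against 6.85, 6.96 and 6.83) and by -0.20 at its dimmest, which did not pass. Kif20b had a second probe set that passed, at -1.16, though it lay near the floor of the arrays in AKR F1 (means of 2.63 and 3.79), and its other 2 probe sets were near the floor in both groups and differed by -0.09 and -0.05. The second, dim probe set of Kif18a differed by -0.40 (adjusted p = 0.058 in limma). Kif16b passed at its second probe set (-0.57, adjusted p = 0.041 in limma) and Kif13b at a dim one (0.42, adjusted p = 0.042 in limma), while their brightest probe sets did not pass this test (adjusted p = 0.052 and 0.059 in limma).

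Kif2a and Kif1b did not pass on their brightest probe set but had others that did. In Kif2a, 4 of 5 probe sets were lower in AKR F1, by -1.03, -0.61, -0.57 and -0.52. At the brightest of these 4, AKR F1 read 9.38, 9.11 and 9.34 and DBA F1 9.69, 9.84 and 10.12, so that the groups did not overlap (adjusted p = 0.023 in limma). With the mean of its 5 probe sets in place of the brightest, Kif2a passed with a difference of -0.60. The same averaging ended the calls of Kif3b (-0.14, adjusted p = 0.40 in limma), Kif13b (0.21, adjusted p = 0.084 in limma) and Kif16b (-0.29, adjusted p = 0.059 in limma). In Kif1b, 1 of 7 probe sets was lower (-0.50, with 6.86, 6.61 and 6.69 against 7.37, 7.04 and 7.25, adjusted p = 0.029 in limma), and all 7 differences were below 0. Kif2c had 3 of its 4 probe sets below 0, down to -0.52, and none passed.

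In all, 7 kinesin probe sets of 5 genes were lower by more than 1 on the log2 scale, and none of these was the brightest of its gene. These 7 were picked for their large differences, and 3 of them belong to Kif5b. AKR F1 replicate 2 was the lowest of the AKR F1 arrays at all 7, and it is the array with the highest 3' to 5' index, 2.22. The index was higher on every AKR F1 array than on any DBA F1 array, so index and cross cannot be told apart. A link between the index and these differences was not tested. With the index as a covariate the differences at Kif11, Kif23 and Kif2a became -1.10, -0.71 and -0.05, and those at Kif20b and at the 3 Kif5b probe sets became -0.91, -0.78, -1.39 and -1.56. With the hybridization controls as the covariate they were -2.01 at Kif11, -1.36 at Kif23, -1.57 at Kif2a, -2.11 at Kif20b and -1.65, -1.32 and -1.99 at Kif5b, and none passed. In the fit with the index the last of these, the Kif5b probe set with the widest gap, was the only kinesin probe set past the test (adjusted p = 0.030 in limma).

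**Figure D4:**
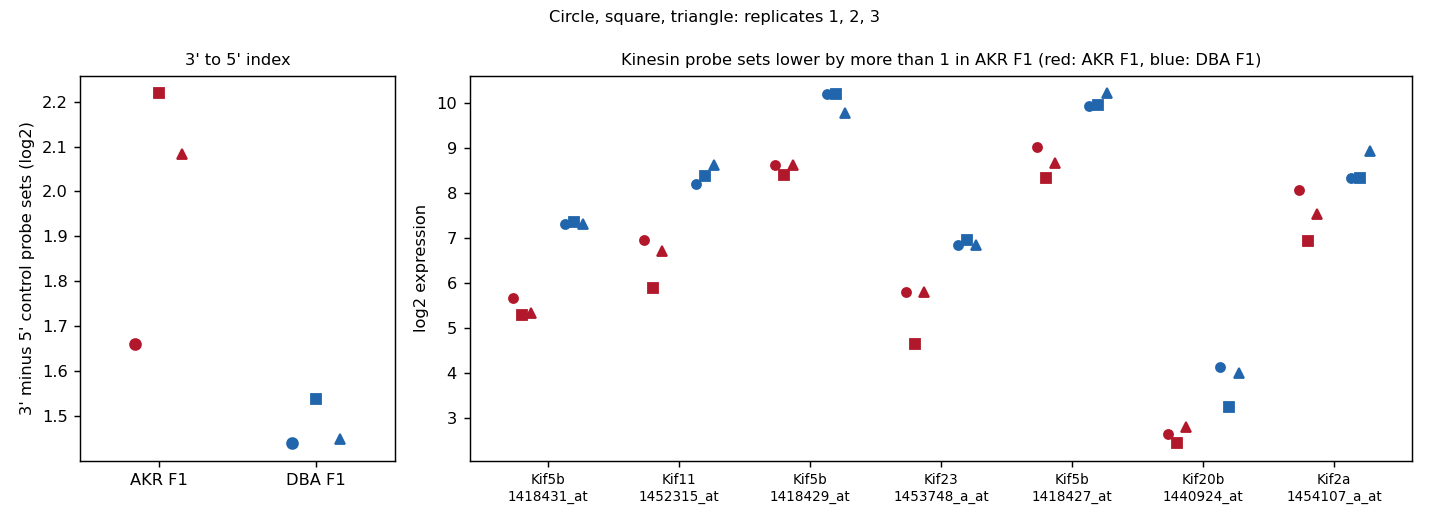
Left, the 3' to 5' index of each array (y axis: mean log2 excess of the 3' over the 5' control probe sets), which was 1.66 to 2.22 in AKR F1 and 1.44 to 1.54 in DBA F1. Right, log2 expression on each array at the 7 kinesin probe sets that were lower by more than 1 in AKR F1, where replicate 2 (square) is the lowest red point each time.

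Genes that work with the kinesins were taken from 5 lists, and of their 79 measured members 4 were higher and 5 lower, 9 in all, where 15.2% of all genes passed. Among the C-terminal kinesins, the centromere motor Cenpe, the light chains and Kifap3, 1 of 9 passed, Kifap3, and the median was 0.17. Cenpe, a kinesin that aligns chromosomes, read 9.28, 9.50 and 9.54 against 9.37, 9.56 and 9.59, a difference of -0.07. Of 13 cargo adaptors of conventional kinesin 1 was lower, Rhot1 (Miro1), which couples mitochondria to the motor, at 8.37, 8.32 and 8.45 against 8.69, 8.75 and 8.81 (-0.37, adjusted p = 0.026 in limma). Its groups did not overlap, and the call passed in 1 of the 6 fits without 1 array. The median of these adaptors was 0.11, with 8 differences above 0 and 5 below. The largest was that of Plekhm1, 0.57, which did not pass (adjusted p = 0.071 in limma).

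Dynein, the motor that walks the opposite way, had 3 of 19 genes past the test, all higher in AKR F1. Its heavy chain Dync1h1 read 9.40, 9.85 and 9.84 against 9.21, 9.19 and 9.05 (0.54, adjusted p = 0.029 in limma). The dynactin subunits Dctn2 and Dctn3 were higher by 0.60 and 0.36 (adjusted p = 0.028 and 0.033 in limma). Among all genes 15.2% passed. These calls passed in 2, 3 and 1 of the 6 fits without 1 array, and the list had none without AKR F1 replicate 2 or 3. Its differences ran from -0.31 to 0.60 around a median of -0.04. Of 13 tubulins 1 was higher, Tubg2, at means of 3.51 and 3.14, below the lower quartile of every array.

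Among 25 mitotic partners 3 were lower in AKR F1 and none was higher, with a median of -0.18. So 12% of this list passed, all lower, where 15.2% of all genes passed and 6.04% were lower. Ect2, the exchange factor that Kif23 and Racgap1 bring to the cell equator, read 8.84, 8.90 and 9.01 against 9.27, 9.68 and 9.66 (-0.62, adjusted p = 0.017 in limma). Ndc80 and Nuf2, which together form the arm of the kinetochore that grips microtubules, differed by -0.43 and -0.45 (adjusted p = 0.016 and 0.024 in limma). Racgap1 itself differed by -0.24 and Prc1, the midzone partner of Kif4, by 0.03, and neither passed. Plk1, a mitotic kinase, lay on the other side (0.45, adjusted p = 0.079 in limma). Each of the 3 calls passed in 2 of the 6 fits without 1 array.

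**Figure D5:**
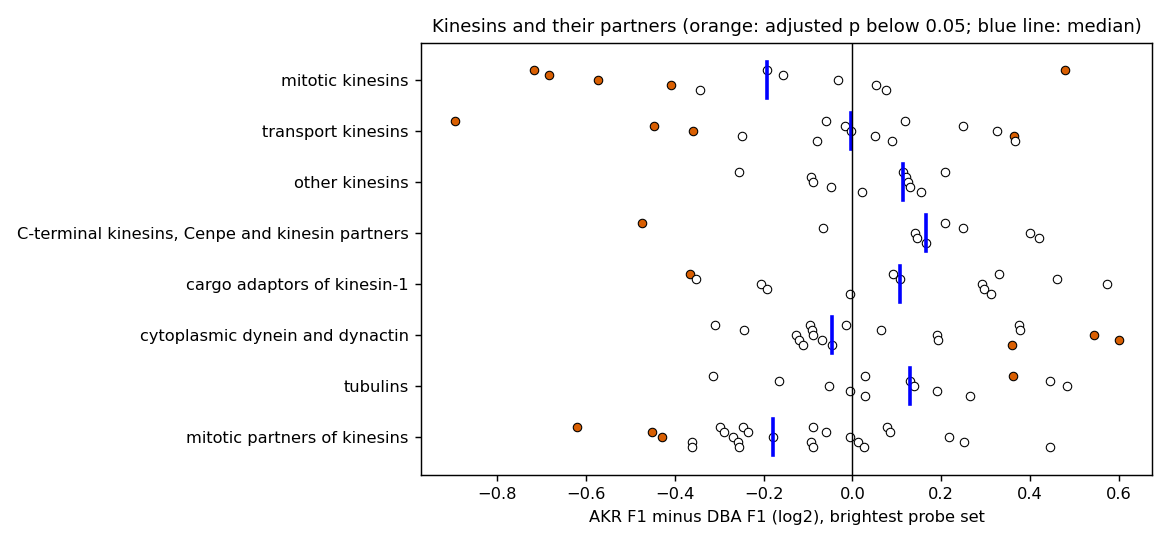
Difference between the crosses (x axis: AKR F1 minus DBA F1, log2) of each measured member of the 3 kinesin groups and the 5 partner lists, 1 row per list, with orange for an adjusted p below 0.05 and a blue line at the median. The medians of the mitotic kinesins (-0.19) and of their mitotic partners (-0.18) lie farthest to the left.

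Subunits of the MuvB complex, which reads the CHR, were in the list of 18 proliferation genes, which holds no NF-Y gene. Of the 18 genes, 2 were higher in AKR F1, 2 lower and 14 did not pass (22.2% passed, against 15.2% of all genes). A link between these genes and the kinesin differences was not tested. Lin54, which binds the CHR, read 8.27, 8.17 and 8.34 against 8.76, 8.71 and 8.72 (-0.47, adjusted p = 0.012 in limma), and Lin9, another MuvB subunit, was lower by -0.39 (adjusted p = 0.029 in limma). Mybl2 and Foxm1, activators that join MuvB at late cell cycle genes, were higher by 0.73 and 0.56 (adjusted p = 0.018 and 0.044 in limma). Mybl2 read 8.64, 8.89 and 8.89 against 8.16, 8.32 and 7.75, and as for Kif18b, DBA F1 replicate 3 was the lowest array. Lin54 passed in 5 of the 6 fits without 1 array, Mybl2 in 4, and Lin9 and Foxm1 in 1 each. The list median was -0.07, with 12 differences below 0 and 6 above. General markers of cycling cells in it lay on both sides. Mki67 (-0.21) and Top2a (-0.24, groups without overlap) were below 0 and did not pass. Tk1 (0.36), E2f1 (0.30) and Mcm7 (0.22) were above 0, each with groups without overlap, and did not pass either.

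Calls rest on few arrays. Of the 9 kinesin genes past the test, 4 kept their call whichever of the 6 arrays was dropped (Kif5b, Kif11, Kif18a and Kif20b), and the count was 4 without AKR F1 replicate 1, 2 or 3 or without DBA F1 replicate 2. Over these fits, the adjusted p of the 9 genes lay between 0.0048 and 0.16 in limma. All 9 kept their sign in every alternative fit.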

How the data were processed

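Total RNA was extracted with Trizol, biotin-labelled and hybridised to Affymetrix arrays, per the labels' protocols. The deposited values are the authors' log2 expression per probe set, used as they stand. Per the submitters' processing notes MAS5 and RMA were used, with no role or version; the rest of the authors' processing, and any scan batch, is not given in the sources at hand. Of 45101 probe sets 64 controls were left out. The platform annotation gives 1 symbol to 34945, several to 932 and none to 9160. All 37 kinesin genes matched RefSeq (GRCm38.p6) by gene ID, used for chromosomes and promoter windows, and 31 had a window.

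Groups and replicate numbers come from the sample titles. The test was limma 3.58.1 (R 4.3.3) with empirical Bayes moderation over all 6 arrays, two-sided, Benjamini-Hochberg over all 18193 genes (brightest single-symbol probe set) or all 45037 probe sets, threshold 0.05. The members and lists were chosen with earlier results of these data known. Values by array are given for genes past the test, for the 5 brightest of the rest of each role and for genes with a probe set past the test, and partner lists name up to 4 members past it; further genes were chosen after their values were seen. Alternatives were quantile normalization, median centring, a filter on dim genes, a variance trend with robust estimation, the replicate block, array weights, averaging all probe sets per gene and leaving out each array. Covariates from the control probe sets were added after seeing the data. The fit was tested on simulated data.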

Additional observations from a re-analysis of the deposited data

How the results depend on the processing

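All 135 refitted differences of the 9 kinesin genes past the test kept their sign. Leaving out 1 array at a time, the count of 9 ran from 4 to 9, the mitotic count of 5 from 3 to 6, the transport count of 4 from 1 to 3, that of the other kinesins from 0 to 1, the 20 kinesin probe sets from 9 to 18 and the 9 partner genes from 0 to 17. Over all genes the count of 2771 ran from 685 (without AKR F1 replicate 2) to 3248 (without DBA F1 replicate 1). The 9 probe sets were left without AKR F1 replicate 2 or 3, and no partner gene passed without AKR F1 replicate 3. The transport count was 2 with median centring, with the replicate block and with averaged probe sets, and averaging gave 1 call among the other kinesins, Kif2a. The partner count was 15 with quantile normalization or averaging, 14 with only genes above the median level and 23 with array weights. With the 3' to 5' index as a covariate 0 kinesin genes (0 mitotic, 0 transport), 0 partner genes and 1 kinesin probe set passed, and with the hybridization controls 0 of each, with median standard errors 1.87 and 2.25 times as large. Signs turned for 12 genes that had not passed. With the index Kif1b became 0.018, Kif2c -0.28, Kif17 -0.056, Kif20a 0.091, Kif24 -0.041 and Kif26a -0.026. With the hybridization controls Kif2a became 0.083, Kif4 0.068, Kif12 0.025 and Kif15 -0.13. With array weights Kif2c became -0.0044, Kif3c 0.016 and Kif7 -0.0029, and with averaging Kif2c -0.23 and Kif24 -0.010. Leaving out 1 array, Kif3c ran from -0.10 to 0.078 and Kif4 from -0.096 to 0.015. The cause was not tested. With the replicate number as a block 6 of the 9 kinesin genes passed (Kif3b, Kif13b and Kif18b did not, with adjusted p up to 0.082 in limma). Deviations of same-numbered arrays correlated at 0.0058, -0.060 and 0.073 over genes, and those of the other pairs at -0.16 to 0.13. With 3 arrays per group this cannot show whether same-numbered arrays were handled together, which the labels do not say. The main fit used no pairing.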
